A study of Homo sapiens with 18 samples.

Results

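Heat shock proteins and chaperones were described here as the 86 genes, of 19775 with a probe set of their own, whose symbol begins with HSPA, HSPB, HSPD, HSPE, HSPH, DNAJA, DNAJB, DNAJC, BAG or CCT followed by a number or letter of the family. They were read by 195 probe sets, and each gene was represented by its brightest probe set. They comprised 11 HSPA, 7 HSPB, 3 HSPD, HSPE or HSPH, 4 DNAJA, 12 DNAJB, 27 DNAJC, 6 BAG and 9 CCT genes, and 7 genes that matched by symbol alone, such as HSPBP1, HSPBAP1 and several noncoding transcripts. A filter on low values left 74 of them for testing, and the other 12 stayed near the lowest measurable intensity. HSPA1A, HSPA1B, HSPA8 and DNAJC25 shared their probe sets with other symbols and were not analysed here. HSP90 genes are not matched by these symbols and are given with other cofactors at the end.

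The study compared A-485 with its vehicle DMSO in 3 melanoma cell lines, SKMEL5, WM2664 and A375, all of which carry an activating BRAF mutation. A-485 inhibits the catalytic domain of p300 and CBP, a pair of acetyltransferases that acetylate histones at active enhancers and promoters. Each line was grown in serum-containing RPMI and treated for 6 h or 24 h at a dose that the labels give as 3 mM, a unit taken over as labelled. For each line at each time, A-485 was measured on 1 array and DMSO on 2, which makes 12 groups and 18 arrays. The series sets 2 sensitive lines against 1 resistant line without naming them. Each line is a single established culture, and nothing in the labels says that the 2 DMSO arrays of a group came from separate cultures, so p-values may cover technical spread only.

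Chaperones bind unfolded protein and release it in cycles driven by ATP. HSP70 proteins (HSPA) do so with J-domain partners (DNAJ) that deliver clients and stimulate ATP hydrolysis, and with exchange factors such as BAG proteins and HSPH1 that release the nucleotide. Small heat shock proteins (HSPB) hold unfolded protein without ATP, while HSPD1 with HSPE1 in mitochondria and the CCT ring in the cytosol enclose their clients. Many cytosolic members are transcribed by heat shock factor 1 under proteotoxic stress, and those of the endoplasmic reticulum by the unfolded protein response.

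Intensities were scaled so that every array had the same distribution, and values under 32 were raised to 32, the floor. The 2 arrays of a DMSO pair correlated at r = 0.99 to 0.994 over genes, a description across genes that are not independent, and 56.9% to 58.5% of genes were above the floor. All 6 measured melanocyte lineage genes were above the floor in every array of SKMEL5 and WM2664. In A375, 3 of the 6 were above it in every array, MLANA, TYR and TYRP1 were at the floor in all but 1 array, and the summed intensity of the list was 456 to 1909 against 14097 to 45871 in the other lines. Of the 4 keratinocyte and epithelial markers 1 was above the floor in SKMEL5, 1 in A375 and 0 in WM2664, and of the 3 leukocyte markers 1 was above it in some array of A375 and 0 in the other lines. Each line had 3 of the 6 fibroblast markers above the floor in some array. In all, 3 DMSO arrays carried traces of another line's transcripts: WM2664 at 6 h replicate 1 at 1.71% of the SKMEL5 level, WM2664 at 24 h replicate 2 at 0.811% of the A375 level, and A375 at 6 h replicate 1 at 0.792% of the SKMEL5 level. The part of these traces in single results was not tested beyond leaving the arrays out. In bulk RNA, a lower level in each cell and fewer cells with the transcript cannot be told apart.

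Levels in DMSO differed between lines for most members. Against the mean of the other lines, 35 of the 74 members were higher in A375 and 27 lower, next to 71.0% of all 14042 tested genes called in either direction, 37.9% higher and 33.1% lower. The members split into 35 higher and 17 lower where arrays were left unscaled. BAG3, an exchange factor for HSP70 that also links it to autophagy, read 1781 to 2013 in the 4 DMSO arrays of A375, 917 to 963 in SKMEL5 and 559 to 649 in WM2664, with no overlap between lines. Its log2 difference in A375 was 1.31 ± 0.03 (SE; adjusted p = 8.53e-09, limma, as for all adjusted p-values here). DNAJB1, the main stress-inducible J-domain partner of cytosolic HSP70, read 2191 to 2264 in A375, 869 to 1031 in SKMEL5 and 1342 to 1435 in WM2664, again without overlap. BAG2 (log2 difference 1.43 ± 0.038), DNAJB4 (1.29 ± 0.081) and DNAJC7 (1.18 ± 0.054) were also higher in A375. DNAJC6, the auxilin that recruits HSP70 to strip clathrin from vesicles, read 341 to 424 in A375 and 289.5 to 338 in WM2664 and was at the floor in all 4 SKMEL5 arrays, so its difference from the mean of the others (1.93) is set by the floor.

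The members that were lowest in A375 were HSPA12A, an atypical HSP70, the J-domain gene DNAJA4, and HSPA2, an HSP70 known for its role in the testis. HSPA12A and DNAJA4 were at the floor in every A375 array, so their differences of -2.83 and -2.77 are limits and the true gaps may be larger. HSPA2 read 143 to 162 in A375, 509.9 to 605 in SKMEL5 and 1488 to 2206 in WM2664 without overlap (A375 minus the others -2.70 ± 0.036). DNAJB11 was lower too, with a difference of -1.16. DNAJC12 had a difference of -1.20 from the mean of the others, but it read 50.2 to 101 in A375, between SKMEL5 and WM2664, where it was at the floor. Between the other lines, 36 members were higher in SKMEL5 and 17 higher in WM2664, against 31.7% and 28.8% of all genes (60.6% in all); without scaling the split was 34 and 9. The widest gap was that of DNAJC12, a partner of the aromatic amino acid hydroxylases, which was at the floor in all 4 DMSO arrays of WM2664 and at 1009.8 to 1161 in SKMEL5, at least 33.9-fold higher. HSPB8, DNAJB4, DNAJC18 and HSPB1 were higher in SKMEL5 by 2.02, 1.14, 1.05 and 0.92 on the log2 scale. DNAJC6, DNAJC4, HSPA2, HSPA12A and HSPA13 were lower there, with differences of -3.30 (a limit, with SKMEL5 at the floor), -2.44, -1.73, -1.09 and -0.98. DNAJC4 read 32 to 80.3 in SKMEL5, with 1 of 4 DMSO arrays at the floor, so its difference is set in part by the floor.

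At 6 h of A-485, more chaperone genes rose than fell in every line. In SKMEL5, 18 members rose and 2 fell, next to 12.5% of all genes that rose and 9.40% that fell (21.9% in all), and with 75th percentile scaling 13 rose and 5 fell. WM2664 had 28 higher and 3 lower (all genes 14.9% and 10.8%, 25.7% in all), and A375 had 10 higher and 3 lower (all genes 5.88% and 6.89%, 12.8% in all). As the mean response of the 3 lines, 28 members rose and 5 fell, shares of 37.8% and 6.76% next to 22.0% and 15.2% of all genes (37.2% in all), and the median difference of the members was 0.13 against 0.02 for all genes. The spread behind a call of the mean comes from the DMSO pairs, so a call does not say that the lines agreed. HSPA2 counts as higher in the mean (0.14), though it was called higher in A375 and lower in WM2664. Called in all 3 lines were 7 members, all of them higher: BAG4, DNAJB9, DNAJB11, DNAJC6, DNAJC9, DNAJC24 and HSPA13. The share of all genes called in all 3 lines was not counted, so this count has no background beside it. In each of the 20, 31 and 13 calls of the single lines, the A-485 array lay beyond both DMSO arrays. A call nearly requires this, so it is a description and no further support.

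The mean response at 6 h had 21 called members without the WM2664 A-485 array, where the mean covers the 2 other lines. When arrays were scaled to their 75th percentile it had 22 that rose and 8 that fell, and without any scaling 24 that rose and none that fell (limma, 41 in either direction at an unadjusted p under 0.05). Without scaling the median of all genes was itself 0.24, and it was 0.39 in WM2664 at 6 h. The A375 count of 13 was 5 without the DMSO replicate 1 array, which carries SKMEL5 transcripts, 7 without its replicate 2, 8 without SKMEL5 DMSO replicate 2, and 6 without the 3 arrays that carry another line's transcripts. Without scaling no A375 member passed in limma, where 4 had an unadjusted p under 0.05. Over all genes, 411 were called in A375 without scaling, next to 1793 with it.

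At 24 h chaperone genes moved in both directions in every line. There were 18 higher and 15 lower in SKMEL5 (all genes 20.2% and 15.2%, 35.4% in all), 18 higher and 15 lower in WM2664 (17.7% and 14.6%, 32.3% in all), and 11 higher and 8 lower in A375 (9.08% and 8.40%, 17.5% in all). The mean response had 27 members higher and 18 lower, next to 26.0% and 20.5% of all genes (46.6% in all), with a member median of 0.05 against 0 for all genes. BAG6, DNAJC6, DNAJC18 and DNAJC27 were higher in all 3 lines, and DNAJB1 and HSPA9 were lower in all 3, again without a count over all genes. DNAJC9, HSPA2, HSPA5 and HSPBAP1 were called in opposite directions in different lines. Without the SKMEL5 A-485 array the mean response had 28 calls, and without scaling 9 higher and 3 lower. The A375 count of 19 was 11 without the DMSO replicate 1 array and 12 without the 3 arrays that carry another line's transcripts. Without scaling, SKMEL5 had 2 higher and 0 lower, WM2664 4 and 2, and A375 had none in limma (7 at an unadjusted p under 0.05). Over all genes, calls without scaling were 1235, 1340 and 623 in these lines and 2910 for the mean response. With scaling they were 4967, 4533, 2454 and 6538.

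The mean response differed between the times for 24 members: it was higher at 24 h for 3 and lower for 21, next to 9.56% and 11.0% of all genes (20.6% in all). The 21 were 28.4% of the members. Without the WM2664 A-485 array of 24 h, 2 were higher and 11 lower. With 75th percentile scaling there were 3 and 12, and without scaling none passed in limma, where 18 had an unadjusted p under 0.05. Over all genes, 2541 were called with 75th percentile scaling and 495 without scaling, next to 2894 in the main fit.

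**Figure D1:**
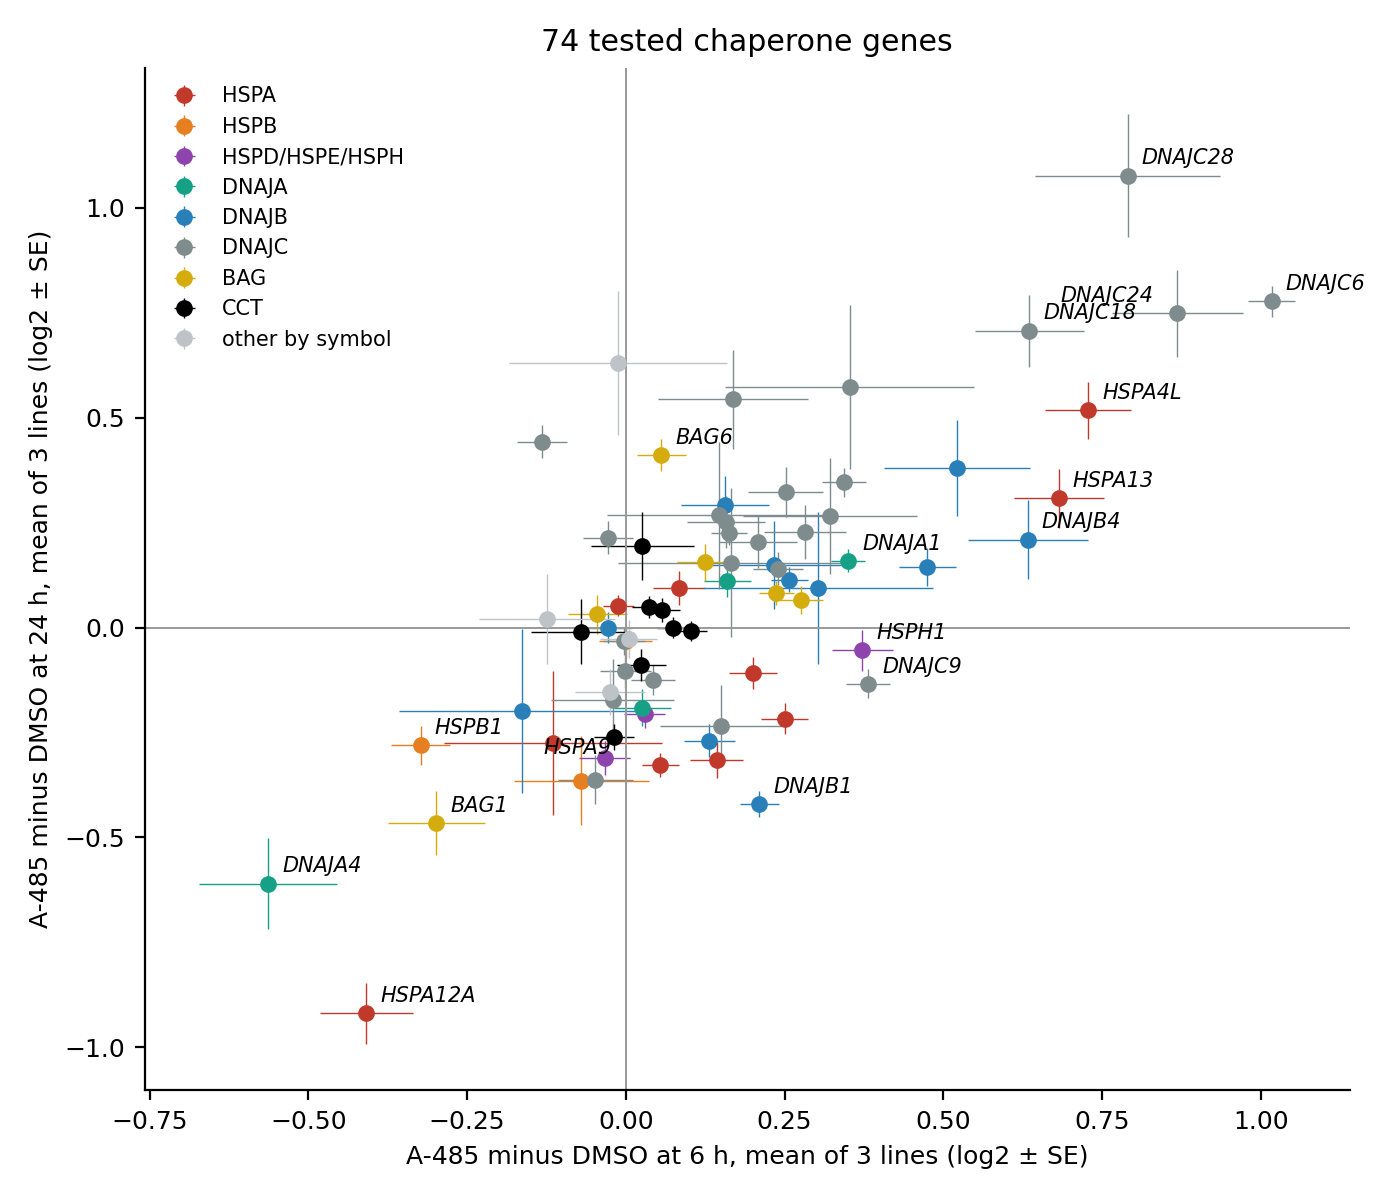
Mean A-485 response of the 3 lines at 6 h (x axis) and at 24 h (y axis), as log2 differences from DMSO with their standard errors, for the 74 tested chaperone genes coloured by family. Most HSPA, DNAJA and DNAJB genes lie right of zero at 6 h, and HSPH1, HSPA9 and DNAJB1 lie at or below zero at 24 h.

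Promoter sequences are shown for members that carry the sites by which the heat shock and unfolded protein responses are known to act, for comparison with their values. RefSeq promoters of GRCh38.p14, covering 250 bases before to 50 after each gene start, were found for 77 of the 86 members. The heat shock element of 3 units, GAANNTTC followed by NNGAA on either strand, was in 4 of 100 member promoters (4.0%), and in 0.49% of all 35116. These were the promoters of DNAJA1, DNAJB6, HSPA6 and HSPD1. The shorter GAANNTTC, which the longer motif contains, was in 15.0% of member promoters and 6.77% of all, among them those of DNAJB1 and HSPB1. The endoplasmic reticulum stress element, CCAAT and CCACG with 9 bases between them, was in the HSPA5 promoter alone among members (1.0%, against 0.0769% of all), and the CCAAT box that it contains was in 36.0% and 34.6%. In the sequences below, written along the gene's strand, capitals mark the matches, which are descriptions of letters and not of binding.
DNAJA1, chr9:33025268-33025296, plus strand: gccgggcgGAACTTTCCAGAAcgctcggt
HSPD1, chr2:197500023-197500090, minus strand: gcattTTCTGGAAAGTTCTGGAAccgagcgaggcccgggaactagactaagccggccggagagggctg
DNAJB6, chr7:157336828-157336930, plus strand: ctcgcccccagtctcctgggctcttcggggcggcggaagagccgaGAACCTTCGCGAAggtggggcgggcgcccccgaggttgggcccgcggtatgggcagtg
HSPA6, chr1:161524421-161524523, plus strand: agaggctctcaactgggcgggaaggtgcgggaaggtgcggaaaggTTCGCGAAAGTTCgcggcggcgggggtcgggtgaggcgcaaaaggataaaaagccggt
DNAJB1, chr19:14518398-14518519, minus strand: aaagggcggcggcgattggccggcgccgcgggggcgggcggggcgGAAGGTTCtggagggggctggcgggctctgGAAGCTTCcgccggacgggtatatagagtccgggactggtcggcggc
HSPA5, chr9:125241346-125241454, minus strand: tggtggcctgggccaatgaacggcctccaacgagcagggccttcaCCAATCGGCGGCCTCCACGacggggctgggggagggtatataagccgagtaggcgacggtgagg
The DNAJA1 match lies just after the gene start, while the HSPD1 sequence holds 2 overlapping matches far upstream. HSPA6, a strictly stress-induced HSP70, stayed near the floor, between 32 and 78.8 over the 18 arrays, and was called in none of the responses to A-485 (limma, adjusted p of 0.663 for the mean at 6 h and 0.24 at 24 h).

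Several exchange factors and J-domain partners of cytosolic HSP70 rose at 6 h, among them HSPH1, DNAJA1, HSPA4L and BAG3 in both SKMEL5 and WM2664, and none of these 4 passed in A375. HSPH1, an HSP110-type exchange factor, read 1736 and 1735 in the SKMEL5 DMSO arrays against 2328 with A-485, 1507 and 1622 against 2349 in WM2664, and 2901 and 2677 against 2999 in A375. The A-485 array was above both DMSO arrays in every line, and the rise passed the test in SKMEL5 (0.42 ± 0.083, adjusted p = 0.0104) and WM2664 (0.59 ± 0.083, 0.00196) but not in A375 (0.11 ± 0.083, 0.544). Its response in A375 was lower than that of the other lines (-0.40 ± 0.10, adjusted p = 0.0465). Its values at 24 h were 1856 and 2004 in the SKMEL5 DMSO arrays against 1855 with A-485, 1334 and 1461 against 1353 in WM2664, and 2582 and 2581 against 2474 in A375, and no line passed. The mean response was lower at 24 h than at 6 h, with a difference of -0.43 ± 0.068.

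DNAJA1, a J-domain partner of HSP70 and the member with a heat shock element just past its start, also had its widest response in WM2664. At 6 h it read 4496 and 4419 in the SKMEL5 DMSO arrays against 5735 with A-485, 2961 and 2968 against 4226 in WM2664, and 6205 and 6013 against 6901 in A375, so that A-485 was above DMSO throughout. The differences were 0.36 ± 0.047, 0.51 ± 0.047 and 0.18 ± 0.047 on the log2 scale, and the last of these missed the threshold (adjusted p = 0.0502). At 24 h the mean response was smaller, 0.16 ± 0.027, but still called.

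DNAJB1, whose promoter holds the shorter element, turned from higher to lower. At 6 h it read 869 and 889 in the SKMEL5 DMSO arrays against 1102 with A-485, 1375 and 1435 against 1501 in WM2664, and 2264 and 2199 against 2578 in A375, and the rise passed in SKMEL5 and A375. At 24 h it read 1010.1 and 1031 in the SKMEL5 DMSO arrays against 806 with A-485, 1342 and 1421 against 984 in WM2664, and 2214 and 2191 against 1633 in A375, with the A-485 array below both DMSO arrays in each line. The differences were -0.34 ± 0.053, -0.49 ± 0.053 and -0.43 ± 0.053 on the log2 scale and all passed. Between the times the mean response differed by -0.63 ± 0.043 (adjusted p = 0.000136), the lowest value among the members. DNAJB6, which holds back protein aggregation and has the full element, moved the same way with smaller mean differences, 0.13 ± 0.04 at 6 h and -0.27 ± 0.04 at 24 h, of which WM2664 alone passed as a single line at 6 h and A375 alone at 24 h.

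HSPA4L, another HSP110-type exchange factor, rose at both times in the mean of the lines. At 6 h it read 261 and 248 in the SKMEL5 DMSO arrays against 396 with A-485, 178 and 158 against 401 in WM2664, and 280.4 and 234 against 313 in A375, with the widest gap in WM2664, 2.39-fold. Its mean response was 0.73 ± 0.068 at 6 h and 0.52 ± 0.068 at 24 h. HSPA14, a ribosome-associated HSP70, rose at 6 h in the mean of the lines (0.25 ± 0.037), and its partner DNAJC2 had 0.043 ± 0.035 (adjusted p = 0.409). At 24 h their mean responses were -0.22 and -0.12. HSPA14 fell in SKMEL5 (-0.43) and WM2664 (-0.29), and in A375 it read 1129 and 1129 in DMSO against 1189.6 with A-485. DNAJC2 passed in A375 alone of the single lines (-0.24).

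**Figure D2:**
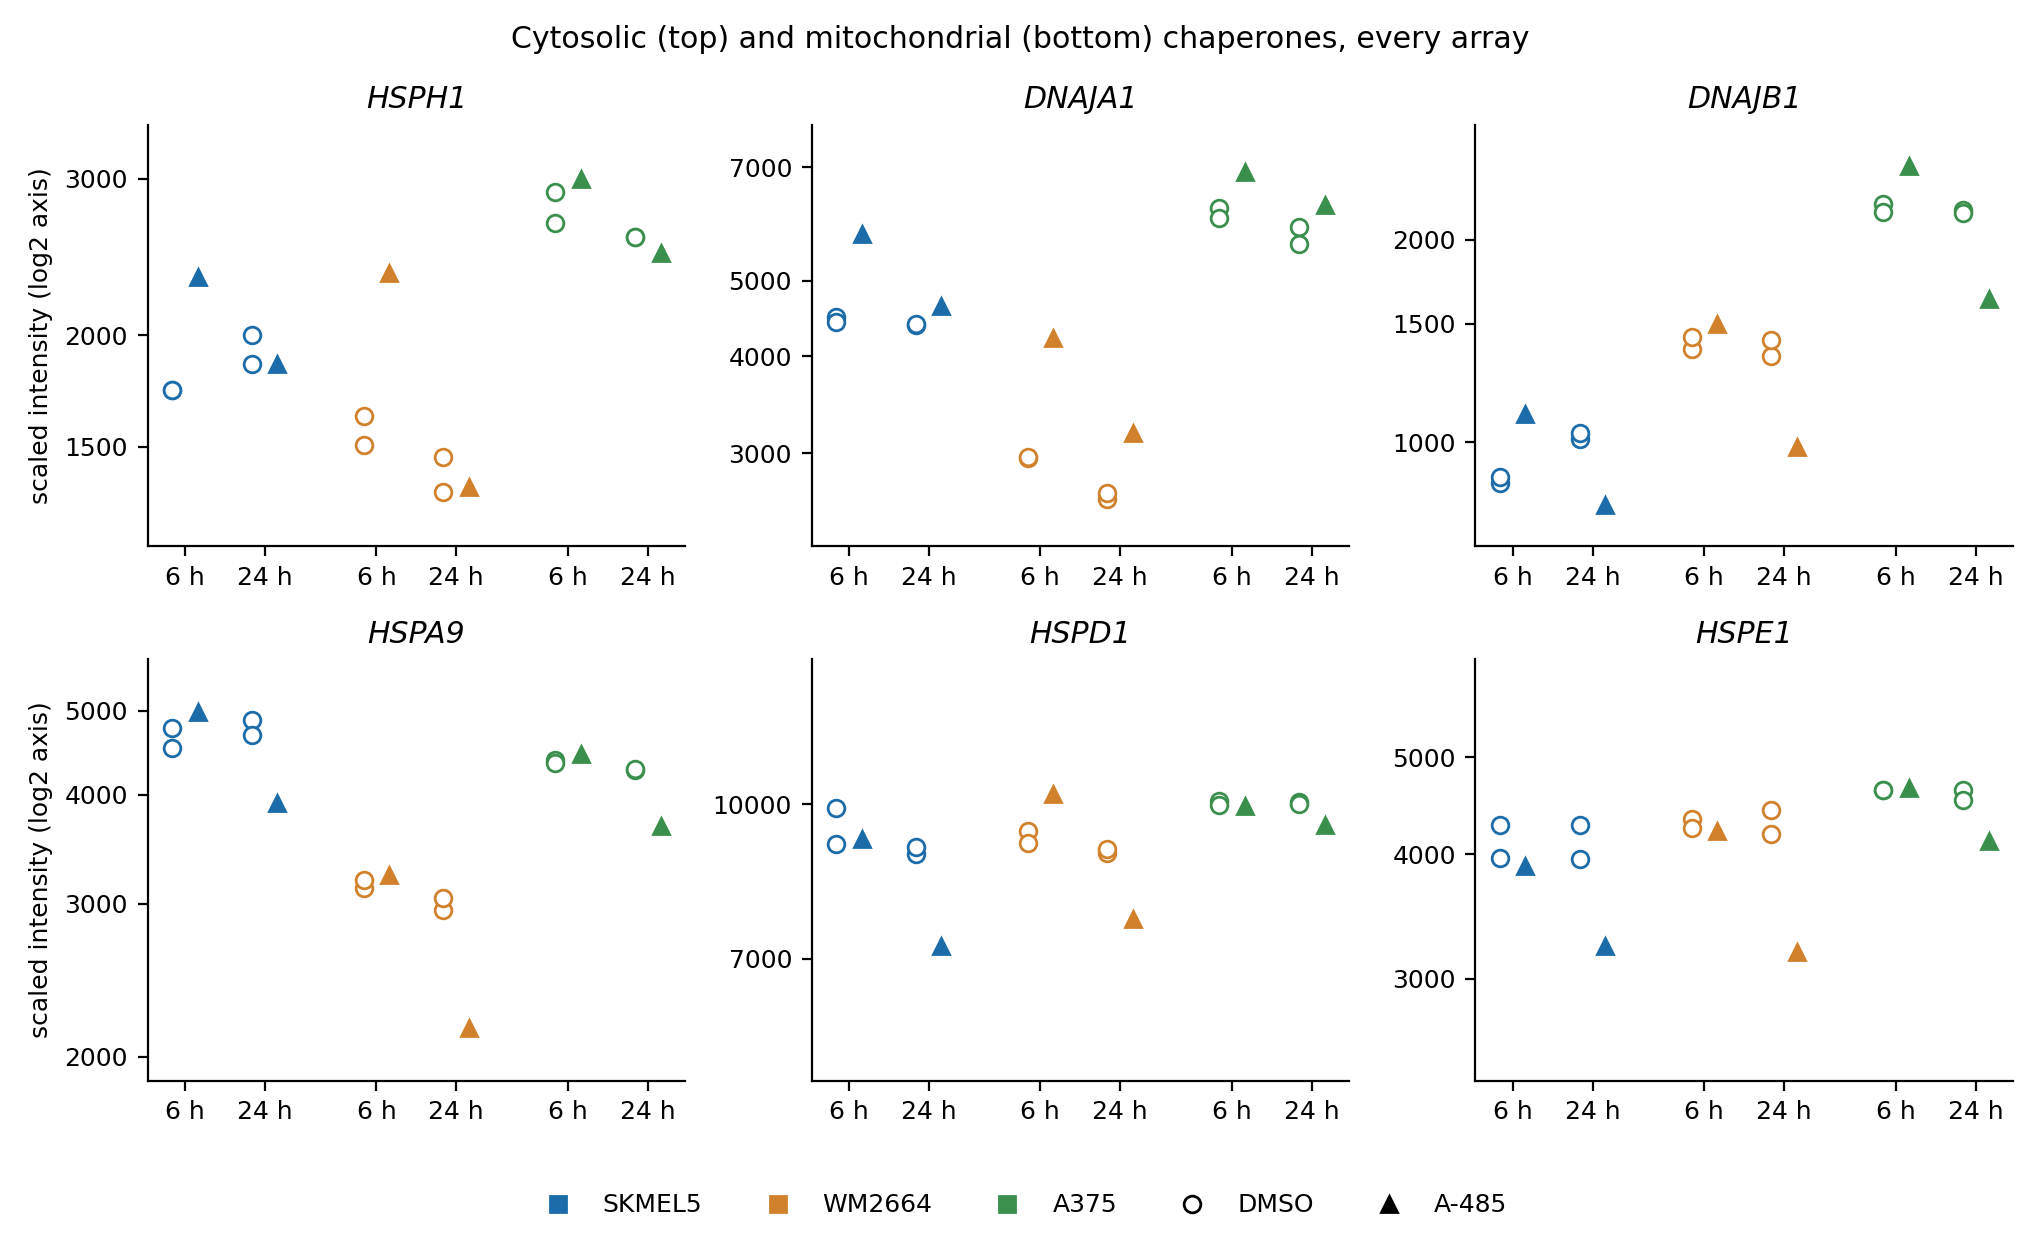
Scaled intensity (log2 axis) of 3 cytosolic chaperones (top) and 3 mitochondrial chaperones (bottom) in every array, with open circles for DMSO and triangles for A-485, by line and time. DNAJB1 with A-485 lies above the DMSO circles at 6 h and below them at 24 h in each line, and the HSPA9 triangles lie below the circles at 24 h.

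Of the 3 tested small heat shock proteins, HSPB6 was above the floor in only 1 of 18 arrays and could not show a change. HSPB1 fell at both times in the mean response and HSPB8 at 24 h. HSPB1, known as HSP27, read 2517 and 2659 in the SKMEL5 DMSO arrays against 2214 with A-485, 1415 and 1511 against 1134 in WM2664, and 867 and 876 against 671 in A375 at 6 h, below both DMSO arrays in every line. The differences of -0.37 ± 0.08 in WM2664 and -0.38 ± 0.08 in A375 passed, and that of -0.22 ± 0.08 in SKMEL5 did not (adjusted p = 0.0932). Without scaling between arrays the WM2664 difference was 0.085, where the median of all genes was 0.39. The mean response of -0.28 ± 0.046 at 24 h passed as a single response in WM2664 and A375. HSPB8, which works with BAG3, passed in A375 alone of the single lines and fell there, from 629 and 541 to 311 at 6 h and from 595 and 474 to 309.5 at 24 h. At 6 h it read 1240.0 and 1101 against 1421 in SKMEL5 and 342 and 301 against 427 in WM2664, and the A375 response differed from these by -1.26 ± 0.23 (adjusted p = 0.0114).

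Of 7 chaperones of the endoplasmic reticulum, HSPA5, HSPA13, DNAJB9, DNAJB11 and DNAJC3 rose at 6 h in the mean response and DNAJC1 and DNAJC10 did not pass. This grouping, like that of the mitochondrial genes, was made after the values had been seen, so its counts support nothing by themselves. At 6 h, 5 of 7 rose next to 22.0% of all genes, and at 24 h 5 were higher and 1 lower, next to 26.0% and 20.5%. Of the 12 other folding genes of that compartment, 1 rose at 6 h. HSPA5, known as BiP, the HSP70 of that compartment, read 5916 and 5745 in the SKMEL5 DMSO arrays against 7243 with A-485, 7218 and 6851 against 8275 in WM2664, and 5009 and 5137 against 5269 in A375 at 6 h. It rose in SKMEL5 (0.31 ± 0.066) and WM2664 (0.23 ± 0.066). With 75th percentile scaling its mean response at 6 h was -0.0017, and a further probe set of the gene gave -0.00056, so its direction at 6 h depends on the scaling and the probe set; in WM2664 the 75th percentile value was -0.065. At 24 h it read 6228 and 5976 in the SKMEL5 DMSO arrays against 7284 with A-485, 6349.5 and 6942 against 6176 in WM2664, and 5296 and 5357 against 3826 in A375: above both DMSO arrays in SKMEL5 and below both in WM2664, without passing there, and in A375, where the difference was -0.48 ± 0.066 (adjusted p = 0.00268). The A375 response was lower than that of the other lines, with a difference of -0.55 ± 0.08 (adjusted p = 0.00247). The mean response at 24 h (-0.11 ± 0.038) was 0.076 without the A375 A-485 array.

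Of the partners of HSPA5, DNAJB9 and DNAJC3 were higher in A375 at 24 h. DNAJB9, a J-domain protein that targets unfolded protein for degradation, read 590.2 and 589.7 in the SKMEL5 DMSO arrays against 828 with A-485, 509 and 574 against 756 in WM2664, and 367 and 346 against 487 in A375 at 6 h. It rose in all 3 lines by 0.49, 0.48 and 0.45, and at 24 h it was still higher in A375 (0.37 ± 0.078). The A375 response at 24 h was above that of the other lines by 0.33 ± 0.10. There DNAJB9 read 699 and 722 in DMSO against 806 with A-485 in SKMEL5, and 597 and 591 against 549 in WM2664. DNAJC3, which binds unfolded protein together with HSPA5, rose in A375 by 0.19 and 0.34 and in WM2664 by 0.27 and 0.21 at 6 h and 24 h. DNAJB11 rose by 0.27, 0.28 and 0.22 at 6 h. HSPA13, an HSP70-like protein of microsomes, read 562 and 591 in the SKMEL5 DMSO arrays against 987 with A-485, 1255 and 1188 against 2039 in WM2664, and 596 and 490.5 against 781 in A375 at 6 h and had a mean response of 0.68 ± 0.071, or 1.6-fold. DNAJC10, a disulfide reductase, was not called at 6 h and rose at 24 h in SKMEL5 (0.26) and WM2664 (0.39), with -0.0033 ± 0.068 in A375 and a difference between the lines of -0.33 ± 0.083. In DMSO all 7 genes were lower in A375 than the mean of the other lines, with a median difference of -0.71, next to 33.1% of all genes.

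Of 8 mitochondrial chaperones, 1 (DNAJC19) rose at 6 h in the mean response, while 2 were higher and 5 lower at 24 h, next to 26.0% and 20.5% of all genes. In single lines at 24 h, 4 were lower in SKMEL5, 5 in WM2664 and 2 in A375, next to 15.2%, 14.6% and 8.40% of all genes. The 5 of the mean were HSPA9, HSPD1, HSPE1, DNAJA3 and DNAJC11. HSPA9, the HSP70 of the matrix known as mortalin, read 4883 and 4688 in the SKMEL5 DMSO arrays against 3913 with A-485, 2953 and 3046 against 2159 in WM2664, and 4278 and 4286 against 3681 in A375 at 24 h. The groups did not overlap in any line, and the differences of -0.29 ± 0.051, -0.47 ± 0.051 and -0.22 ± 0.051 passed in all 3. HSPD1 and HSPE1, which form the HSP60 and HSP10 folding chamber and are transcribed head to head from a shared region, fell together in SKMEL5 and WM2664. HSPD1 read 8922 and 9063 in the SKMEL5 DMSO arrays against 7206 with A-485, 8937 and 9027 against 7671 in WM2664, and 10060.3 and 10016 against 9536 in A375 at 24 h, and the differences that passed were -0.32 and -0.23, with -0.074 ± 0.056 in A375 (adjusted p = 0.484). HSPE1 read 3955 and 4278 in the SKMEL5 DMSO arrays against 3236 with A-485, 4429.8 and 4187 against 3190.0 in WM2664, and 4636 and 4533 against 4125 in A375, with differences of -0.35 and -0.43 that passed and a difference of -0.15 ± 0.069 in A375 that did not. At 6 h the mean responses were 0.054 ± 0.029, 0.03 ± 0.032 and -0.033 ± 0.04 for these 3 genes, and all 3 had a lower response at 24 h than at 6 h. With probe sets of the _x_at and _s_at kinds left out, which can read related sequences, HSPA9 gave -0.14 at 6 h and -0.52 at 24 h.

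DNAJA3, the J-domain partner of HSPA9, had a mean response of -0.19 ± 0.044 at 24 h, and DNAJC11, which belongs to the cristae organising complex, had -0.36 ± 0.059. DNAJC19, a part of the import motor at the inner membrane, went the other way: it read 871 and 872 in the SKMEL5 DMSO arrays against 980.3 with A-485, 742 and 719 against 944 in WM2664, and 915 and 955 against 862 in A375 at 24 h, where the mean response was 0.14 ± 0.04. The rise passed in WM2664 and the A375 response was lower than that of the other lines (-0.39 ± 0.084). With 75th percentile scaling the mean responses of HSPA9, HSPD1 and HSPE1 at 24 h were -0.39, -0.28 and -0.39. Without scaling they were -0.31, -0.20 and -0.31, where only the last passed.

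**Figure D3:**
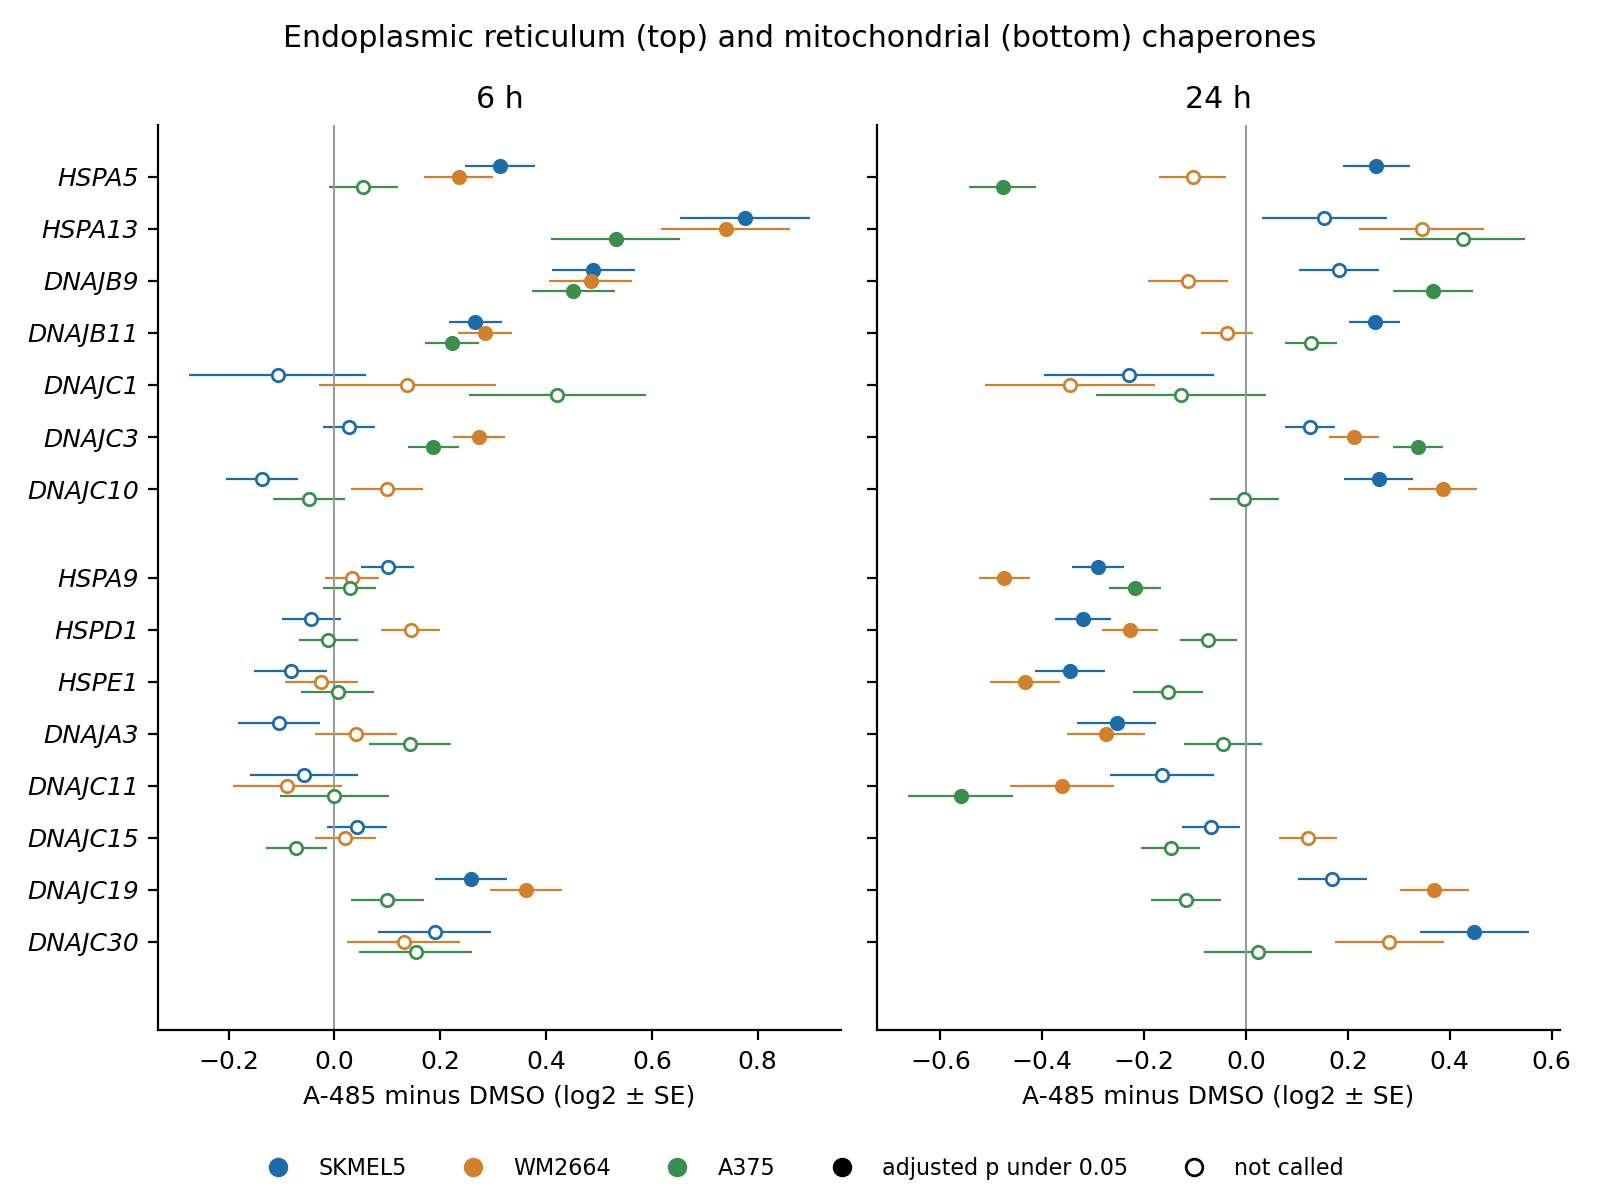
A-485 minus DMSO (log2 difference ± SE, x axis) for 7 chaperones of the endoplasmic reticulum (top) and 8 of mitochondria (bottom) in each line, at 6 h (left) and 24 h (right). Filled points passed an adjusted p under 0.05; HSPA9 is filled and left of zero in all 3 lines at 24 h, and HSPA13, DNAJB9 and DNAJB11 are filled and right of zero in all 3 at 6 h.

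The CCT ring folds actin and tubulin. Of its 8 tested subunits, 1 passed in the mean response at each time, next to 37.2% of all genes at 6 h and 46.6% at 24 h. CCT4 alone rose at 6 h in the mean response (0.10 ± 0.024), and with 75th percentile scaling the value was -0.067. CCT5 alone fell at 24 h (-0.26 ± 0.031). CCT5 read 5624 and 5519 in the SKMEL5 DMSO arrays against 4889.8 with A-485, 4172 and 4071 against 2689.6 in WM2664, and 6381 and 6429.7 against 6513 in A375 at 24 h, so that the fall came from WM2664 (-0.62 ± 0.054, adjusted p = 0.000165) and, to a lesser size, SKMEL5 (-0.19 ± 0.054). Its response differed between A375 and the other lines by 0.43 ± 0.066 (adjusted p = 0.00327). The mean responses of CCT2, CCT3, CCT6A, CCT6B, CCT7 and CCT8 lay between -0.071 and 0.074 at 6 h and between -0.089 and 0.19 at 24 h, and none passed. In single lines CCT2 and CCT4 rose in WM2664 at 6 h (0.20 and 0.14, or -0.047 and -0.087 with 75th percentile scaling), CCT8 rose there at 24 h (0.19), and CCT6A fell in SKMEL5 at 24 h (-0.25). In DMSO, 7 of the 8 subunits were higher in A375 than the mean of the other lines, next to 37.9% of all genes, with CCT3 (0.88 ± 0.024) and CCT2 (0.70 ± 0.021) the farthest, and CCT6B, a testis-enriched form, was lower (-0.50 ± 0.068). CCT6A read 4425 to 5033 in A375 and 4771 to 5611 in SKMEL5, so that these ranges overlapped. Its mean log2 level was lower in A375 (12.20) than in SKMEL5 (12.35) and higher than in WM2664 (11.83).

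BAG genes, most of which encode exchange factors for HSP70, moved in both directions: 2 of 6 rose and 1 fell at 6 h in the mean response, next to 22.0% and 15.2% of all genes, and 3 rose and 1 fell at 24 h, next to 26.0% and 20.5%. BAG3 at 6 h read 963 and 917 in the SKMEL5 DMSO arrays against 1088 with A-485, 649 and 620.0 against 1019.6 in WM2664, and 2013 and 1897 against 1864 in A375. It rose in WM2664 (0.69 ± 0.06, 1.61-fold) and SKMEL5 (0.21 ± 0.06), and the A375 response was lower than theirs, with a difference of -0.52 ± 0.073 (adjusted p = 0.00414). At 24 h it was still higher in WM2664 (0.39 ± 0.06), where it read 559 and 587 in DMSO and 751 with A-485. BAG2, which holds back a ubiquitin ligase bound to HSP70, rose in WM2664 at both times (0.52 and 0.44). BAG4 rose at 6 h in all 3 lines, by 0.33, 0.16 and 0.22.

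BAG6, which guides tail-anchored membrane proteins, was not called at 6 h and read 1292 and 1302 in the SKMEL5 DMSO arrays against 1831 with A-485, 1208 and 1133 against 1611 in WM2664, and 1103 and 1133 against 1353 in A375 at 24 h. The rises of 0.50 ± 0.067, 0.46 ± 0.067 and 0.27 ± 0.067 passed in every line, and the mean response was higher at 24 h than at 6 h (0.36 ± 0.055, adjusted p = 0.00425). BAG1, an exchange factor that also binds growth and survival proteins, fell: its mean response was -0.30 ± 0.076 at 6 h and -0.47 ± 0.076 at 24 h. At 24 h it read 382 and 375.4 in the WM2664 DMSO arrays and 213 with A-485, and 592 and 595 against 563 in A375, a difference between A375 and the other lines of 0.58 ± 0.16. Without scaling the 6 h value was 0.012, next to an all-gene median of 0.24.

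**Figure D4:**
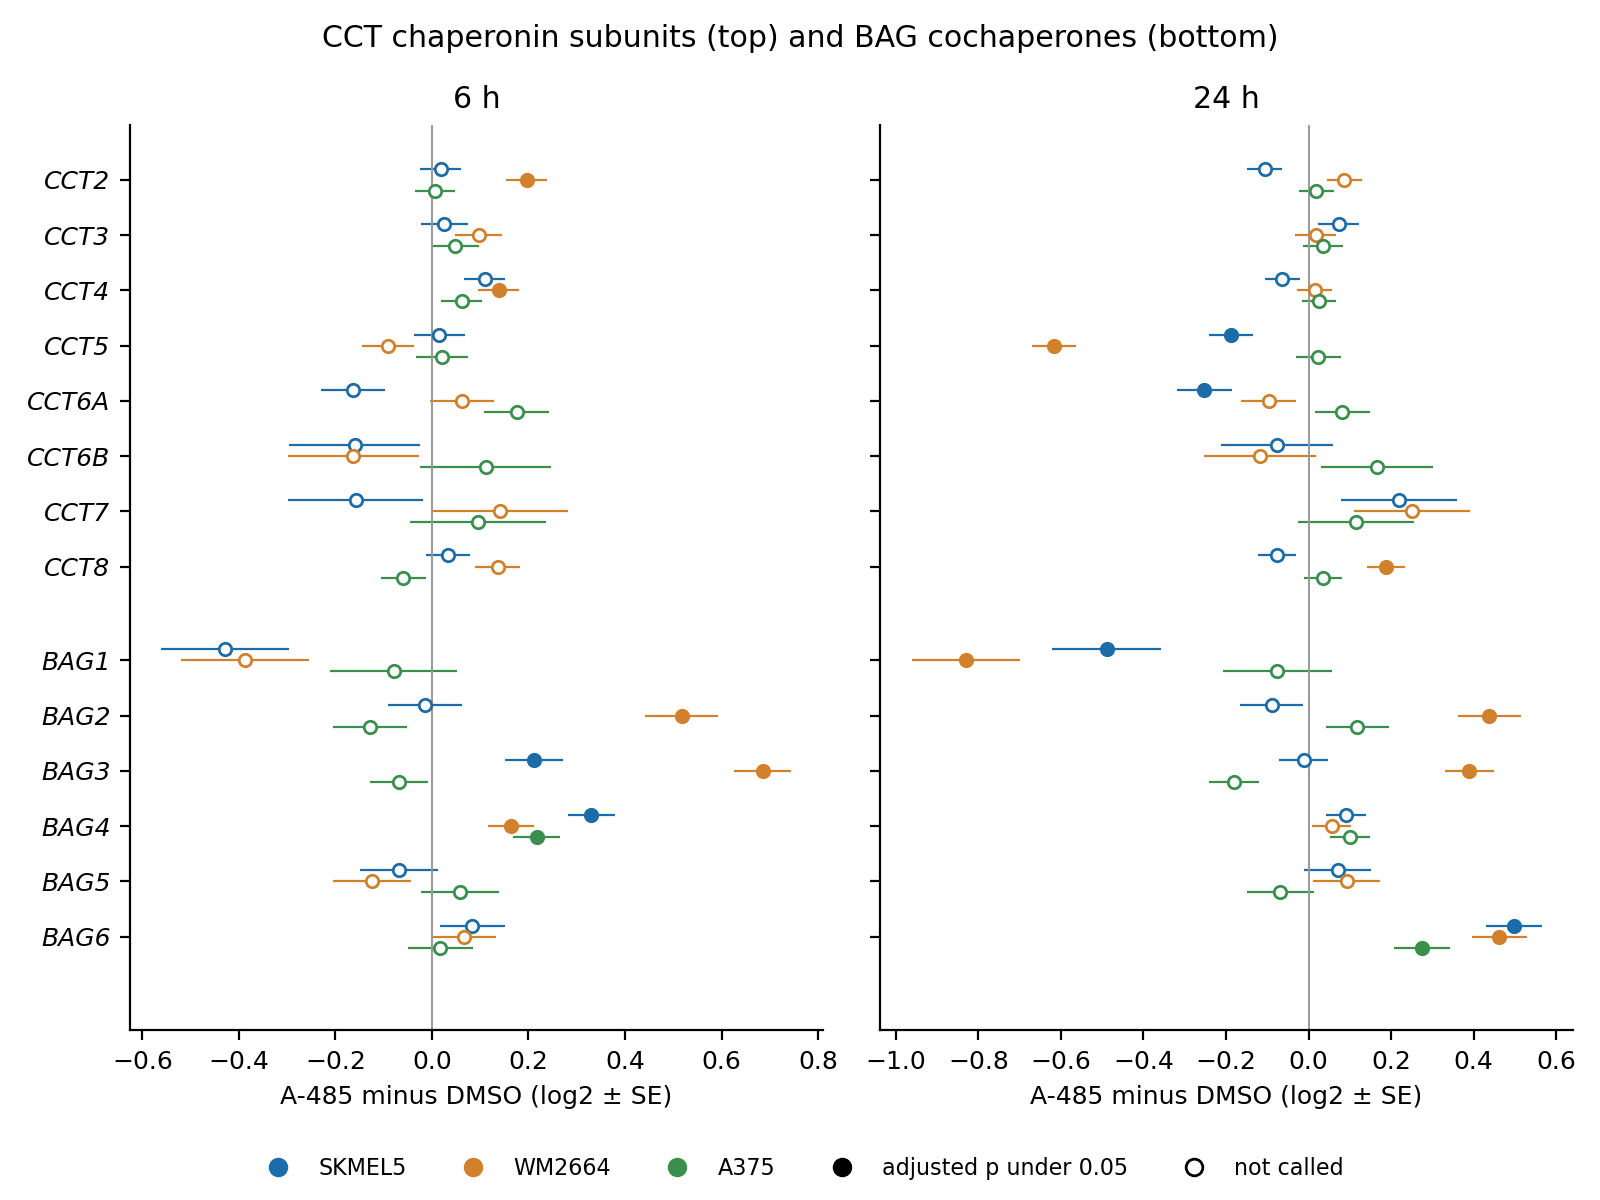
A-485 minus DMSO (log2 difference ± SE, x axis) for the 8 tested CCT subunits (top) and 6 BAG genes (bottom) in each line at 6 h (left) and 24 h (right), filled where the adjusted p was under 0.05. Most CCT points lie near zero; BAG6 is filled and right of zero in all lines at 24 h, where CCT5 and BAG1 lie farthest left in WM2664.

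Among the remaining J-domain genes, the widest rises in the mean of the lines at 6 h were those of DNAJC6, DNAJC24, DNAJC28, DNAJC18 and DNAJB4. DNAJC6 at 6 h read 32 and 32 in the SKMEL5 DMSO arrays against 103 with A-485, 338 and 328 against 713 in WM2664, and 424 and 409 against 502 in A375. In SKMEL5 both DMSO arrays were at the floor, so the gene was at least 3.21-fold higher with A-485, and it rose 2.14-fold in WM2664 and 1.2-fold in A375. It was still higher in every line at 24 h, with a mean response of 0.78 ± 0.037. Its SKMEL5 DMSO pairs were at the floor and show no spread, so its standard errors may be too small, also for the A375 calls. DNAJC24, which takes part in the synthesis of diphthamide, a modified histidine of a translation elongation factor, read 435 and 449 in the SKMEL5 DMSO arrays against 904 with A-485, 524 and 544 against 963 in WM2664, and 402 and 491 against 733 in A375 at 6 h. Its mean response was 0.87 ± 0.10 at 6 h and 0.75 ± 0.10 at 24 h.

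DNAJC28 read 32 to 53.3 in the DMSO arrays of SKMEL5, 32 to 42.6 in those of WM2664, and the floor in every A375 array. With A-485 it read 92.6 and 119 in SKMEL5 and 89.7 and 89.7 in WM2664 at 6 h and 24 h, and it rose in both lines at both times. The rise of 1.09 in SKMEL5 at 6 h was measured against DMSO arrays above the floor, while 1 or both DMSO arrays were at the floor for those of 1.90 in SKMEL5 at 24 h and 1.28 and 1.33 in WM2664. DNAJC18 rose in SKMEL5 and WM2664 at both times and in A375 at 24 h, with mean responses of 0.64 ± 0.086 and 0.71 ± 0.086. DNAJC27, a Rab-like GTPase with a J domain, had 0.34 ± 0.035 and 0.35 ± 0.035, and at 6 h its A375 response was lower, with a difference of -0.59 ± 0.073. DNAJB4, a cytosolic partner of HSP70, read 202 and 214 in the SKMEL5 DMSO arrays against 423 with A-485, 112 and 92.2 against 201 in WM2664, and 386 and 356 against 345 in A375 at 6 h. It rose 2.03-fold in SKMEL5 and 1.97-fold in WM2664, while in A375 the A-485 array was below both DMSO arrays without passing (-0.11 ± 0.16). The A375 response differed from the others by -1.11 ± 0.20 (adjusted p = 0.0116).

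DNAJC9, a chaperone of histones H3 and H4, rose at 6 h in all 3 lines, by 0.42, 0.32 and 0.41. Its values at 24 h were 1249 and 1180.0 in the SKMEL5 DMSO arrays against 898 with A-485, 1516 and 1543 against 1335 in WM2664, and 1864 and 1959.9 against 2239 in A375, lower in SKMEL5 and WM2664 and higher in A375, and all 3 differences passed. The A375 response at 24 h differed from the others by 0.54 ± 0.073 (adjusted p = 0.00168), and without the SKMEL5 A-485 array the mean response (-0.13 ± 0.034) was 0.016. DNAJB14, a J-domain protein anchored in the endoplasmic reticulum membrane, had mean responses of 0.52 ± 0.11 and 0.38 ± 0.11, and DNAJB12, its relative, 0.29 ± 0.069 at 24 h. DNAJC5, the cysteine string protein of secretory vesicles, rose in WM2664 at 24 h from 219.6 and 259 to 462. DNAJC22 fell in A375 at 6 h (-0.41 ± 0.068) and rose at 24 h in SKMEL5 (0.78 ± 0.068) and WM2664 (0.48 ± 0.068).

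DNAJA4 was the member that fell most in SKMEL5, from 189 and 219.9 to 88.4 at 6 h and from 259 and 199 to 108 at 24 h, and it fell in WM2664 at 24 h from 251 and 209.7 to 135. DNAJA2, a cytosolic partner of HSP70, had a mean response of 0.16 ± 0.037 at 6 h, while another of its probe sets gave -0.12. Of the called members whose probe set and further ones were above the floor in every array, 2 of 21 had a probe set of the opposite sign at 6 h and 0 of 28 at 24 h. DNAJC12 rose in A375 at 24 h from 95.3 and 50.2 to 159 (1.20 ± 0.30); in SKMEL5 it read 1132 and 1161 against 871, which did not pass.

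The response of A375 differed from the mean of the other lines for 13 members at 6 h, 3 higher and 10 lower, next to 5.57% and 6.20% of all genes (11.8% in all). It differed for 19 at 24 h, 11 higher and 8 lower, next to 24.1% of all genes in either direction. At 6 h there were 6 without the arrays that carry another line's transcripts, 8 without A375 DMSO replicate 1 and 8 without the WM2664 A-485 array. HSPA2 was among the members that differed most at both times. It read 509.9 and 536 in the SKMEL5 DMSO arrays against 482 with A-485, 1488 and 1589 against 1083 in WM2664, and 162 and 162 against 336 in A375 at 6 h, and 605 and 551 in the SKMEL5 DMSO arrays against 477 with A-485, 2206 and 2108 against 794 in WM2664, and 143 and 148 against 248 in A375 at 24 h. In A375 it rose from its low level (1.05 ± 0.073 and 0.77 ± 0.073), and in WM2664 it fell from its high level (-0.51 ± 0.073 and -1.44 ± 0.073, or 2.72-fold lower). The responses differed by 1.36 ± 0.089 at 6 h and 1.63 ± 0.089 at 24 h, with adjusted p-values of 0.000146 and 2.45e-05. Without the WM2664 A-485 array of 24 h, the mean response at 24 h was 0.25 in place of -0.32, and the difference between times was 0.11 in place of -0.46.

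HSPA12A fell in WM2664 from 301 and 348 to 149 at 6 h and from 359 and 324 to 84.7 at 24 h, 4.03-fold lower. In SKMEL5 it fell at 24 h from 177 and 150.0 to 97.1. Since it was at the floor in every A375 array, no change could be seen there, and its differences between lines (0.61 and 1.38), like those of DNAJA4 and DNAJC28 at 24 h, reflect the other lines alone.

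**Figure D5:**
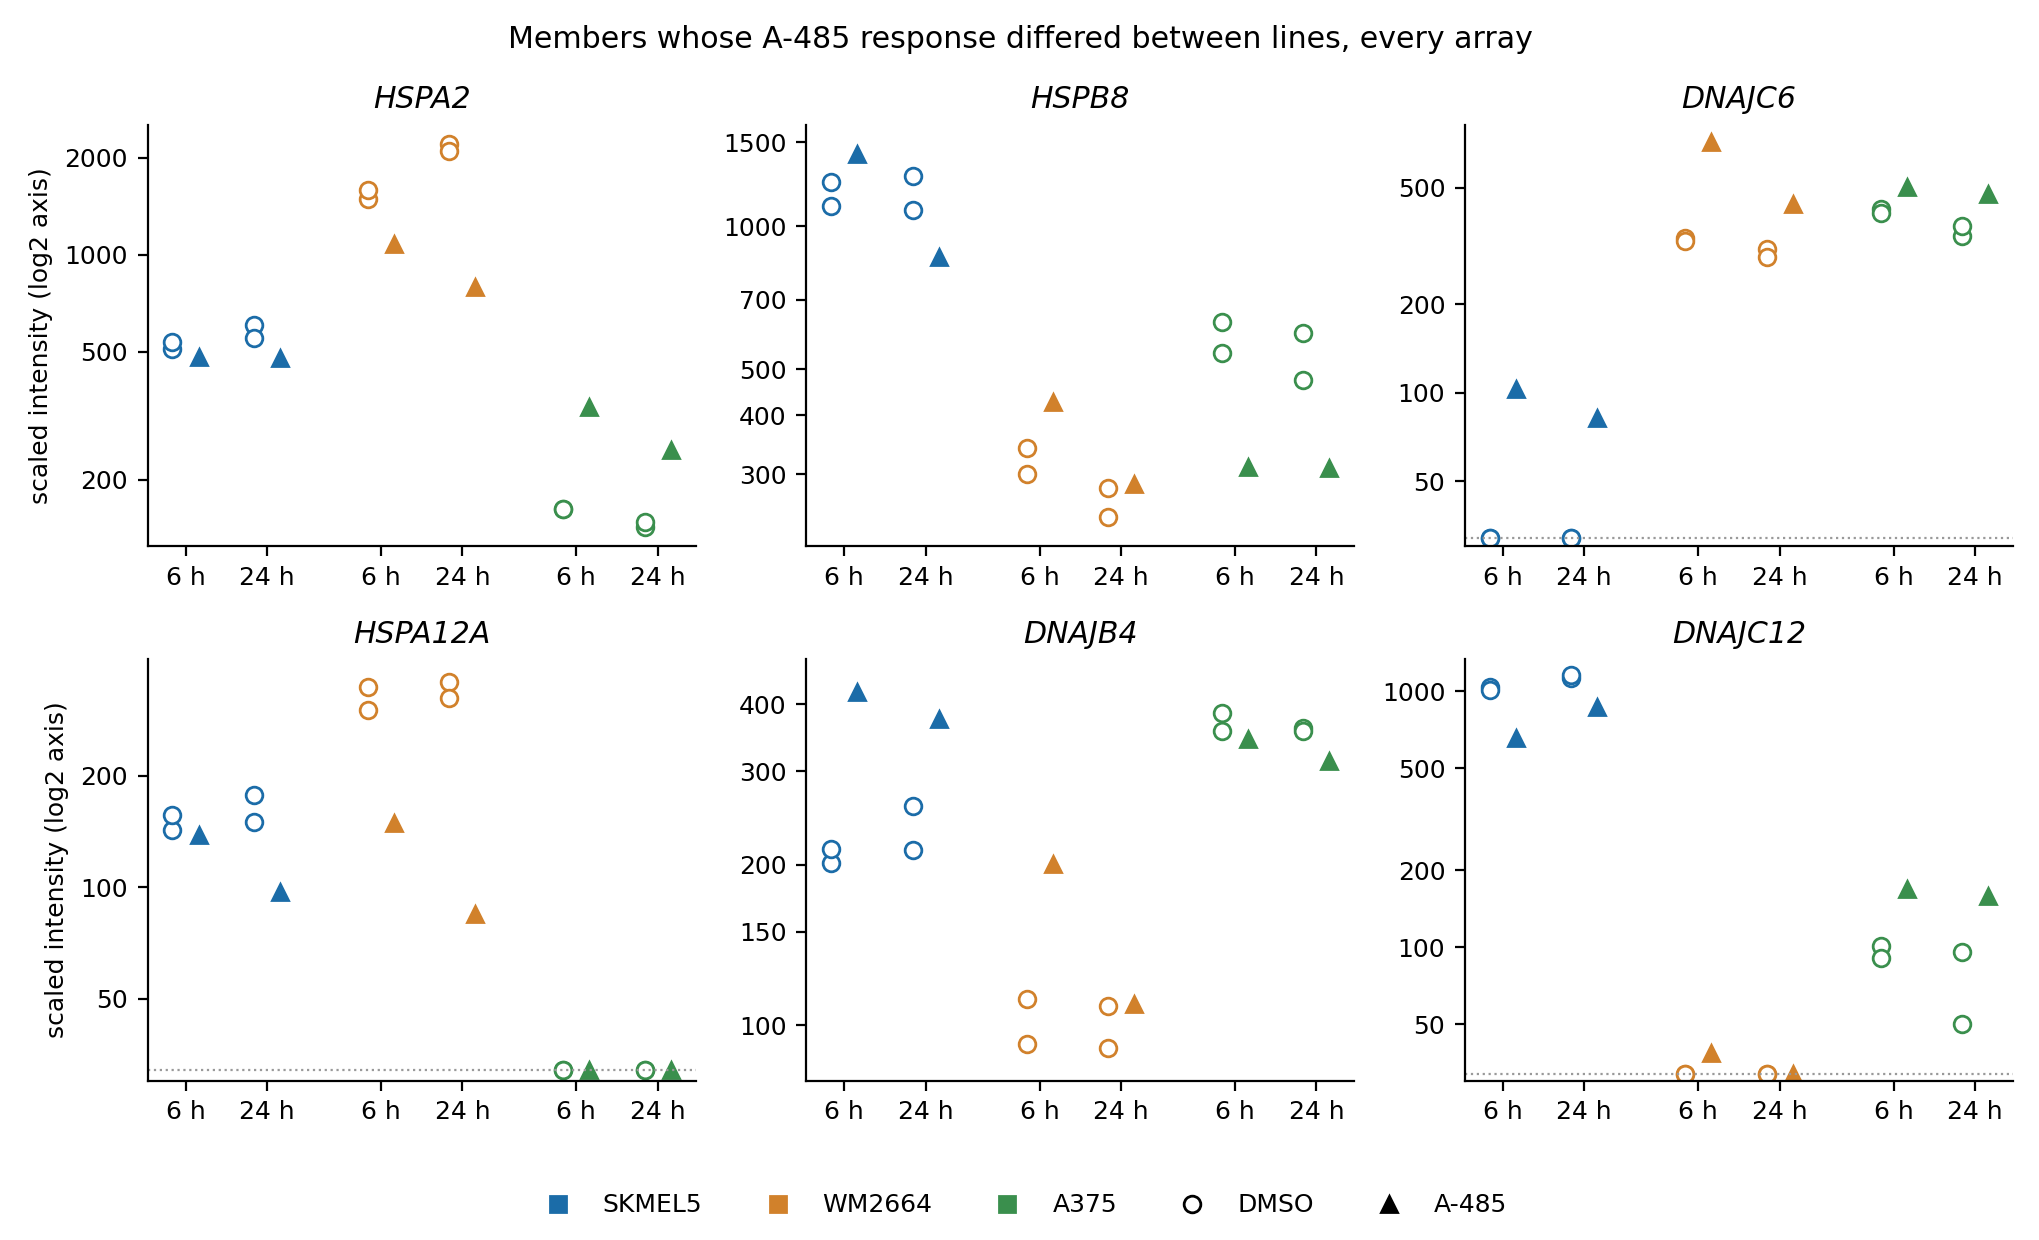
Scaled intensity (log2 axis) of 6 chaperone genes whose response to A-485 differed between A375 and the other lines at 6 h or 24 h, in every array, with open circles for DMSO and triangles for A-485. HSPA2 with A-485 lies above DMSO in A375 and below it in WM2664, and the dotted line marks the floor of 32.

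Of the pathway's genes outside the rule, listed with these results in view, 43 of 49 could be tested, and 13 rose at 6 h (30.2%, next to 22.0% of all genes) and none fell in the mean response (limma; at an unadjusted p under 0.05, 18 were higher and 0 lower). At 24 h, 12 rose and 7 fell, or 27.9% and 16.3% next to 26.0% and 20.5% of all genes. Of the 15 cochaperones of HSP90, 9 rose at 6 h in the mean response and 4 rose and 3 fell at 24 h. In single lines at 6 h, 6 rose in SKMEL5, 7 in WM2664 and 0 in A375 (limma, 3 in A375 at an unadjusted p under 0.05). The shares of all genes that rose in these lines were 12.5%, 14.9% and 5.88%. In the mean response at 6 h none of the 4 HSP90 genes passed (limma, 0 at an unadjusted p under 0.05). RPAP3, a scaffold of the R2TP assembly machine, had 0.62 ± 0.061, CDC37L1, a relative of the kinase cochaperone CDC37, 0.51 ± 0.06, and SUGT1 0.38 ± 0.045. At 24 h TRAP1, the HSP90 of mitochondria, fell by 0.22 ± 0.044. Of the cofactors of HSP70, SIL1, the exchange factor of HSPA5, rose at both times in the mean response (0.24 ± 0.072 and 0.38 ± 0.072), GRPEL2 in mitochondria rose and then fell (0.19 ± 0.045 and -0.23 ± 0.045), and ST13 rose at 24 h (0.24 ± 0.029). At 24 h GRPEL2 read 635 and 698 in DMSO against 435 with A-485 in SKMEL5, and 521 and 535 against 464 in WM2664. In A375 it read 1032 and 1124 against 1173, above both DMSO arrays. Of the prefoldins, which hand clients to the CCT ring, VBP1 rose at both times and PFDN5 at 24 h (0.35 ± 0.024).

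Folding genes of the endoplasmic reticulum outside the rule numbered 12, of which 1 was higher at 6 h, MANF (0.25 ± 0.035), and 2 higher and 2 lower at 24 h, with P4HB at 0.18 ± 0.044, SDF2L1 at -0.28 ± 0.065 and MANF at -0.19 ± 0.035. In DMSO, 9 of these 12 were lower in A375 and none higher (limma, 0 higher at an unadjusted p under 0.05), and 13 of the 15 HSP90 cochaperones were higher there and 1 lower, next to 37.9% of all genes higher and 33.1% lower. Of the 2 tested factors of the heat shock list, HSBP1, a regulator of heat shock factor 1, rose at 24 h (0.11 ± 0.032), and HSF1 itself passed in neither mean response (-0.28 ± 0.19 at 6 h, adjusted p = 0.289, and 0.19 ± 0.19 at 24 h, 0.454).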

How the data were processed

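RNA of 3 melanoma cell lines was labelled by the Affymetrix 3' IVT method, per the labels' protocols, and measured on 18 HG-U133 Plus 2.0 arrays, whose number limits the precision. The authors deposited linear probe set intensity values, of which 19.3% to 22.9% per array were below 0 and whose array medians were 19.5 to 29.0. Which software and scaling made them is not given in the sources used here; scanner files were not used.

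The deposited intensities were quantile normalized on the linear scale, raised to a floor of 32 and turned to log2. Symbols came from the platform annotation, updated by Entrez identifier for 41037 probe sets; of 54613 probe sets 41091 had 1 symbol, 1801 several and 11721 none. Genes whose brightest probe set had a mean log2 below 5.007, the 40th percentile of all probe sets, were dropped, leaving 14042. limma 3.58.1 in R 4.3.3 fitted the means of all 12 groups (6 residual and 1.26 prior degrees of freedom). The single A-485 array of each group is thus assumed to vary like the DMSO pairs. The p-values were adjusted by Benjamini-Hochberg within each of 13 contrasts, two-sided, with calls made below 0.05. The fits were tested on simulated data. There the A-485 arrays were given the spread of the DMSO pairs, so the assumption that they vary alike was not tested.

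The members, the lists of further pathway genes and the tests were chosen with earlier results of these data known. Named were a set of core chaperones, up to 3 called members of each family and direction in each mean of the lines, up to 5 called members per direction in the other contrasts, every CCT subunit, up to 3 called genes per list of further genes, and members whose probe sets disagree; HSPA6, DNAJC3, HSPBP1 and HSF1, and the grouping by compartment, were chosen after their values were seen. Same-numbered DMSO arrays of different groups showed no shared deviation. Every A-485 array is labelled replicate 1, and whether it shares a culture or run with the DMSO array of that number was not tested. The alternatives were 10 other settings and 18 fits that each left out 1 array.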

Additional observations from a re-analysis of the deposited data

Results flagged for a closer look

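The response to A-485 differed between A375 and the mean of the other lines, by the interaction test in limma, for the named members that follow. At 6 h the difference on the log2 scale (A375 minus the others) was 1.36 for HSPA2, 0.61 for HSPA12A and 0.50 for HSPBAP1. It was -1.26 for HSPB8, -1.12 for DNAJC6, -1.11 for DNAJB4, -0.66 for HSPA4L and -0.59 for DNAJC27. HSPBAP1 is a partner of HSPB1 that the symbol rule takes in.

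At 24 h the difference was 1.63 for HSPA2, 1.40 for DNAJC12, 1.38 for HSPA12A, 0.91 for DNAJA4 and 0.86 for HSPBAP1. It was -1.62 for DNAJC28, -0.56 for DNAJC22, -0.55 for HSPA5, -0.53 for DNAJC6 and -0.39 for DNAJC19. HSPA12A, DNAJA4 and DNAJC28 were at the floor of 32 in every A375 array, so no A375 response could be measured for these 3. DNAJC12 was at the floor in the WM2664 arrays of 24 h with and without A-485. DNAJC6 was at the floor in every SKMEL5 DMSO array, so its differences at 6 h and 24 h, like that of DNAJC12, are set in part by the floor.

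The mean response differed between 24 h and 6 h, again by a test of the difference, for 8 named members. It was higher at 24 h by 0.57 for DNAJC22, 0.36 for BAG6 and 0.24 for DNAJC10. The difference was -0.63 for DNAJB1, -0.52 for DNAJC9, -0.51 for HSPA12A, -0.47 for HSPA14 and -0.46 for HSPA2. Without the WM2664 A-485 array of 24 h it was 0.036 for HSPA12A and 0.11 for HSPA2.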

How the results depend on the processing

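The counts of called members kept within 1.5 times of their main value for the DMSO levels of the lines under every setting, and for the mean response at 6 h under all settings but the deposited values with a floor of 1, and without the WM2664 A-485 array. With no scaling between arrays the calls were 5, 17 and 0 at 6 h and 2, 6 and 0 at 24 h in SKMEL5, WM2664 and A375, 12 for the mean at 24 h, 2 at each time for A375 against the others and 0 between times (limma; in either direction at an unadjusted p under 0.05, 4 and 7 for A375 and 18 between times). On deposited values with a floor of 1 they were 1, 5 and 1 at 6 h, 2, 2 and 1 at 24 h, 18 and 6 for the means, and 0, 0 and 0 for the 3 tests of differences (limma; 12, 6 and 12 unadjusted). Calls over all genes were fewer too. On these deposited values they were 118, 511 and 182 at 6 h, 662, 507 and 248 at 24 h, and 2745 and 1690 for the means. Without scaling they were 857, 2525 and 411, then 1235, 1340 and 623, then 4394 and 2910. The main fit had 3076, 3606 and 1793, then 4967, 4533 and 2454, then 5229 and 6538. With 75th percentile scaling 15 members differed between times. With a floor of 16 there were 7 for A375 at 6 h, 6 and 12 for A375 against the others and 14 between times. Without _x_at and _s_at probe sets, where fewer genes could be tested, there were 19 for WM2664 at 24 h, 6 and 8 for A375, 28 for the mean at 24 h, 7 and 12 for A375 against the others and 10 between times. With the replicate number as a block there were 7 for A375 at 6 h, and no other count moved by over 1.5 times; same-numbered DMSO arrays of 15 pairs of groups had deviations correlated at -0.0348 to 0.058. Without the 3 DMSO arrays that carry another line's transcripts there were 6 and 12 for A375 and 6 for A375 against the others at 6 h.

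Leaving out 1 array at a time gave 17 to 21 and 26 to 33 for SKMEL5 at 6 h and 24 h, 25 to 32 and 27 to 36 for WM2664, 5 to 14 and 11 to 19 for A375, 21 to 36 and 28 to 45 for the means, 8 to 15 and 14 to 20 for A375 against the others, 13 to 25 between times, and 58 to 63 and 50 to 54 for the DMSO levels. Without an A-485 array the mean covers the other 2 lines.

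Some named genes turned direction. Without scaling the values were 0.085 for HSPB1 in WM2664 at 6 h and 0.012 for BAG1 and 0.17 for DNAJC22 in the mean at 6 h, and the same 3 values came from the deposited intensities with a floor of 1, which also gave 0.21 for DNAJA4 in the mean at 24 h. With 75th percentile scaling they were -0.065, -0.047 and -0.087 for HSPA5, CCT2 and CCT4 in WM2664 at 6 h and -0.0017, -0.067 and -0.14 for HSPA5, CCT4 and CCT6A in the mean. Without _x_at and _s_at probe sets they were -0.21 and -0.14 for HSPA9 in WM2664 and in the mean at 6 h, and -0.037 for CCT8 in WM2664 at 24 h, where the only other CCT8 probe set was above the floor in 5 of 18 arrays and measures no direction. Leaving out 1 array gave ranges of -0.24 to 0.0047 for DNAJC22 in the mean at 6 h, of -0.32 to 0.016 for DNAJC9, -0.86 to 0.25 for HSPA2 and -0.29 to 0.076 for HSPA5 in the mean at 24 h, and, for the mean response at 24 h minus 6 h, of -0.97 to 0.036 for HSPA12A and -1.0 to 0.11 for HSPA2. The cause was not tested. Of the named calls, 128 no longer passed without scaling and 16 with 75th percentile scaling, while 70 and 180 stayed on the same side with the same direction. Genes near the floor of 32 are limited by signal over background.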
